A study of Caenorhabditis elegans with 9 samples.

Results

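The touch receptor neuron *mec* genes examined here are *mec-2*, *mec-3*, *mec-4*, *mec-7*, *mec-10*, *mec-12*, *mec-17* and *mec-18*. They were chosen by name, with earlier results of these data known, from the genes of *Caenorhabditis elegans* that build the gentle touch receptor neurons, and are 8 of the 20541 genes in the files. RNA of whole worms was sequenced in 9 libraries, 3 in each of 3 groups. The groups were mutants of genotype *egl-44(mt2247)* on *E. coli* OP50, wild type (WT, strain N2) worms exposed to *P. aeruginosa* PA14, and WT worms fed *E. coli* OP50. All worms were labelled adult and spent 24 h at 25°C on their bacteria. *P. aeruginosa* PA14 is a pathogen that colonizes the worm intestine, and *E. coli* OP50 is the standard laboratory food. The *egl-44* group rests on a single mutant genotype. The labels also spell its name MT2247, in the style of a strain name, so the name of the allele is uncertain, and the nature of the lesion was not given in the sources used here. *egl-44* mutants exposed to PA14 were not analysed here.

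The touch receptor neurons are a small, fixed set of mechanosensory cells that lie along the body wall and sense gentle touch. The LIM homeodomain factor MEC-3, switched on with the POU factor UNC-86, activates the genes that these cells need. MEC-4 and MEC-10 are pore subunits of a sodium channel of the DEG/ENaC family that opens on touch, and MEC-2 is a stomatin-like protein that binds the channel and raises its activity. MEC-7, a β-tubulin, and MEC-12, an α-tubulin, form the large microtubules that fill the touch receptor processes, and MEC-17 acetylates α-tubulin. MEC-18 resembles acyl-CoA synthetases and is required for touch sensitivity. EGL-44, the TEAD homolog of the worm, acts with the zinc finger protein EGL-46 in the FLP neurons. There the pair keeps touch receptor genes off although *mec-3* is expressed.

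In the WBcel235 genome, *mec-2* lies on chromosome X at 5567754 to 5590830 on the plus strand, and the other 7 genes lie on the minus strand. *mec-4* (16803321 to 16807115), *mec-7* (7774856 to 7776689), *mec-10* (8465760 to 8470314) and *mec-18* (4271165 to 4274216) are also on chromosome X. *mec-3* (10458816 to 10461867) and *mec-17* (7983802 to 7987183) are on chromosome IV, and *mec-12* (3131574 to 3139234) is on chromosome III. Their levels were deposited as FPKM, the number of fragments scaled to transcript length and to the mapped fragments of the library. Exons of 4 of the genes overlap exons of a protein-coding gene on the opposite strand, over 78 bases with *aak-2* (*mec-4*), 76 bases with *Y53G8B.1* (*mec-12*), 51 bases with *arf-5* (*mec-17*) and 221 bases with *C52B9.10* (*mec-18*). Whether reads were counted by strand was not given in the sources used here. *C52B9.10* stood at 0 to 0.0907 FPKM in the libraries of all 3 groups, whereas *aak-2* stood at 43.0 to 53.5 FPKM in *egl-44* worms and 21.5 to 25.9 FPKM in WT worms fed OP50. The levels of *aak-2* thus exceeded those of *mec-4* many times over and moved in the same direction. The part of shared reads in the *mec-4* values was not tested. For *mec-2*, the length behind the FPKM values was 1679 bases, whereas its 17 annotated transcripts cover 5764 exonic bases, so its level relative to the other genes is uncertain.

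Whole read numbers could be recovered from the steps between FPKM values, and the libraries held 13624999 to 17813010 such reads. Marker genes showed that the *egl-44* libraries differed from the WT libraries in germline and stage markers, although all were labelled adult. Of the oocyte and eggshell genes, 14 of 14 were lower in *egl-44* worms, with summed levels of 57.3 to 160 FPKM, against 1987 to 4481 FPKM in WT worms fed OP50. Likewise, 11 of 11 sperm genes were lower, with sums of 6.63 to 68.9 FPKM in *egl-44* worms and 3258 to 4341 FPKM in WT worms fed OP50. Of the epidermis and moulting genes, 11 of 12 were higher, with sums of 1768 to 2604 FPKM in *egl-44* worms and 74.6 to 825 FPKM in WT worms fed OP50. No gene of these 3 lists was at 0 in a whole group. The *egl-44* libraries were also registered under sample numbers far from those of the WT libraries. The sample labels do not say whether both were grown and sequenced together. The effect of the genotype, the difference in these markers and any such separation cannot be told apart for any gene below. Among the PA14 libraries, replicate 2 stood apart, with Pearson correlations of 0.927 and 0.870 with replicates 1 and 3, against 0.964 between those replicates. In *egl-44* worms replicate 3 correlated at 0.951 and 0.9325 with replicates 1 and 2, against 0.9725 between those. In WT worms fed OP50 replicate 3 correlated at 0.937 and 0.956 with them, against 0.984. The sperm sum was 68.9 FPKM in *egl-44* replicate 3, against 6.63 and 11.9 FPKM in replicates 1 and 2. Because whole worms were sequenced, fewer cells of a type and less RNA per cell cannot be told apart.

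**Figure D1:**
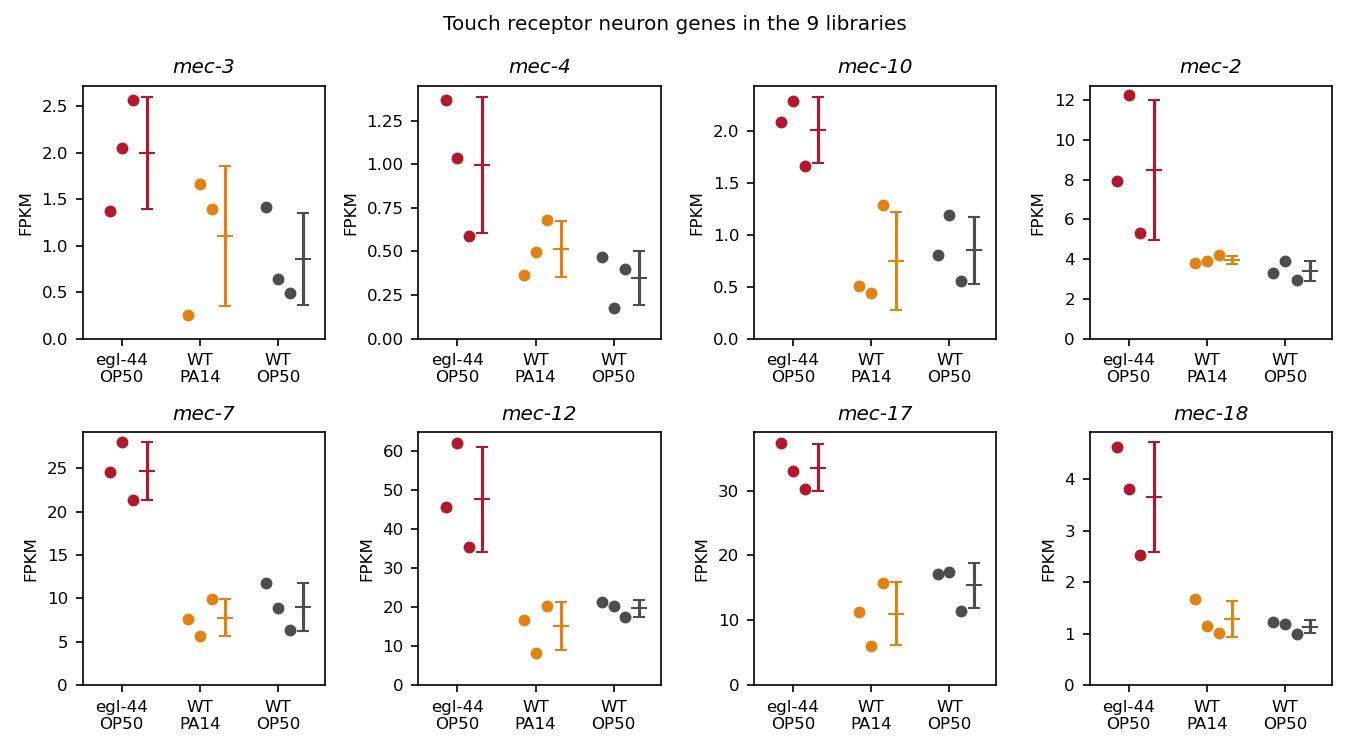
Levels of the 8 touch receptor neuron genes in FPKM (linear axes from 0, a scale of its own for each gene), with 1 point per library in *egl-44* worms fed OP50 (red), WT worms exposed to PA14 (orange) and WT worms fed OP50 (grey). Bars mark the mean ± SD of 3 libraries. For 7 of the genes each *egl-44* library lies above each WT OP50 library, and for *mec-3* the groups overlap.

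To ask whether touch receptor genes differed in *egl-44* mutants, *egl-44* worms were compared with WT worms fed OP50. All 8 genes had higher means in *egl-44* worms, by ratios of 2.18 (*mec-17*) to 3.22 (*mec-18*). By the limits of the study, which ask for a fold change over 2 and p under 0.05 without adjustment, 5 of the 8 genes rose, namely *mec-2*, *mec-7*, *mec-12*, *mec-17* and *mec-18*. With a Benjamini-Hochberg adjusted p under 0.05 over all genes tested with limma, *mec-10* rose as well, which made 6 of 8. The *egl-44* libraries differed from WT in a large part of the transcriptome. Among 15488 genes tested, 17.9% rose and 23.4% fell by the limits, and 26.3% rose and 31.5% fell after adjustment. The median log2 fold change was 1.13 for the 8 genes and 0.12 for all genes tested. Fold changes are given on the scale of log2(FPKM + 0.5), on which those of weakly expressed genes are understated.

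Among the members, *mec-3*, the transcription factor at the head of the group, was expressed at a low level. It stood at 1.38, 2.05 and 2.57 FPKM in *egl-44* worms, against 1.42, 0.647 and 0.492 FPKM in WT worms fed OP50, from 28 to 47 and 9 to 28 reads. WT replicate 1 lay just above the lowest *egl-44* library, so the groups overlapped. The log2 fold change was 0.92 (SE 0.35), with an unadjusted p of 0.0334 and an adjusted p of 0.0559 (limma), and the exact permutation p was 0.2. The smallest p that an exact two-sided permutation test of 3 against 3 libraries can give is 0.1. Leaving out 1 library gave *mec-3* log2 fold changes of 0.73 (adjusted p = 0.144, without WT replicate 3) to 1.20 (adjusted p = 0.0303, without WT replicate 1, limma), and the adjusted p was under 0.05 in that last case alone.

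The channel genes differed in level and in the certainty of their change. *mec-4*, a pore subunit, had 1.37, 1.04 and 0.589 FPKM in *egl-44* worms, against 0.470, 0.172 and 0.401 FPKM in WT worms fed OP50. These values rested on 22 to 57 reads in *egl-44* worms and 6 to 19 reads in WT worms. The groups did not overlap, but the log2 fold change of 0.80 (SE 0.30) had an adjusted p of 0.0524 in limma and a size under the fold limit. The WT mean of *mec-4*, 0.348 FPKM, was under the minimum of 0.5 FPKM for testing, so it was tested only through the *egl-44* libraries. Leaving out 1 library gave 0.63 (adjusted p = 0.154, without *egl-44* replicate 1) to 1.02 (adjusted p = 0.0258, without *egl-44* replicate 3). *mec-10*, the other pore subunit, had 2.09, 2.29 and 1.67 FPKM in *egl-44* worms, against 0.807, 1.19 and 0.554 FPKM in WT worms fed OP50. All mutant libraries were above all WT libraries, and the log2 fold change was 0.92 (SE 0.27, adjusted p = 0.0267, limma). Leaving out 1 library gave 0.75 to 1.09, with an adjusted p over 0.05 in 4 of 6 cases. The ratio of *mec-4* to *mec-10* FPKM was 0.487 ± 0.154 in *egl-44* worms and 0.483 ± 0.302 in WT worms fed OP50 (SD, n = 3 each, exact permutation p = 1). *mec-2*, whose product binds this channel, had 7.93, 12.2 and 5.30 FPKM in *egl-44* worms, against 3.31, 3.92 and 2.94 FPKM in WT worms fed OP50. The mutant libraries spread widely, with a coefficient of variation of 41.3% against 14.6% in WT worms. Its log2 fold change was 1.14 (SE 0.33, adjusted p = 0.0240, limma), and 0.85 (adjusted p = 0.0593) without *egl-44* replicate 2. The adjusted p was over 0.05 in 5 of the 6 cases with 1 library left out, all but *egl-44* replicate 3.

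The tubulin genes and the acetyltransferase were the most abundant members and rested on the most reads. *mec-7*, the β-tubulin, stood at 24.6, 28.0 and 21.3 FPKM in *egl-44* worms, against 11.8, 8.84 and 6.33 FPKM in WT worms fed OP50. Its log2 fold change of 1.44 (SE 0.26, adjusted p = 0.00448, limma) was the largest of the 8 on this scale. *mec-12*, the α-tubulin, stood at 45.6, 62.0 and 35.3 FPKM in *egl-44* worms, against 21.3, 20.2 and 17.3 FPKM in WT worms fed OP50. The groups did not overlap, and the log2 fold change was 1.23 (SE 0.23, adjusted p = 0.00532, limma). *mec-17*, the acetyltransferase of α-tubulin, stood at 37.4, 33.0 and 30.2 FPKM in *egl-44* worms, against 17.2, 17.5 and 11.4 FPKM in WT worms fed OP50. The mutant values were the tightest of the 8 genes, and the log2 fold change was 1.12 (SE 0.22, adjusted p = 0.00566, limma). Without WT replicate 3 it was 0.93 (adjusted p = 0.00834), just under the fold limit. On the opposite strand of *mec-12*, *Y53G8B.1* had a log2 fold change of 0.54 (adjusted p = 0.0627, limma), and *arf-5*, opposite *mec-17*, one of 0.32 (adjusted p = 0.0558). *arf-5* stood at 380.4, 340.2 and 393.3 FPKM in *egl-44* worms, against 319.5, 299.7 and 273.6 FPKM in WT worms fed OP50, far above *mec-17*. The part of shared reads in the *mec-12* and *mec-17* values was not tested.

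Ratios between members that work together overlapped between the groups. *mec-7* over *mec-12* was 0.532 ± 0.0768 in *egl-44* worms and 0.452 ± 0.0949 in WT worms fed OP50 (SD, n = 3 each, exact permutation p = 0.4). *mec-17* over *mec-12* was 0.736 ± 0.177 in *egl-44* worms and 0.777 ± 0.106 in WT worms fed OP50 (SD, n = 3 each, exact permutation p = 0.8). With 3 libraries a group, these tests cannot show that the ratios were equal.

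*mec-18*, the acyl-CoA synthetase-like gene, stood at 4.64, 3.81 and 2.53 FPKM in *egl-44* worms, against 1.22, 1.19 and 0.991 FPKM in WT worms fed OP50. Each mutant library exceeded each WT library, and the log2 fold change was 1.31 (SE 0.28, adjusted p = 0.00798, limma). Across the 8 genes the groups did not overlap for 7, beside 34.1% of all genes tested that were higher and 35.6% that were lower in *egl-44* worms without overlap.

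Other neuron genes rose in the same libraries. Of 17 pan-neuronal genes, taken as markers of all neurons, 8 rose and 0 fell by the limits, and 11 rose and 1 fell after adjustment (limma). Their median log2 fold change was 0.94, beside 1.13 for the touch receptor genes. *sng-1*, the synaptogyrin gene, had 11.1, 13.9 and 8.62 FPKM in *egl-44* worms, against 4.01, 3.17 and 2.95 FPKM in WT worms fed OP50, and a log2 fold change of 1.58 (adjusted p = 0.00315). The genes *unc-10* (1.53), *ric-4* (1.33) and *snt-1* (1.33), which encode RIM, a SNAP receptor protein and synaptotagmin, rose by similar log2 fold changes. The member that fell was *ehs-1*, an endocytic gene, at -0.69 (adjusted p = 0.0168, limma). Body wall muscle genes, which also lie outside the germline, rose in 1 of 9 by the limits and in 7 of 9 after adjustment, with a median log2 fold change of 0.51.

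The touch receptor genes were therefore also set against the pan-neuronal genes, by scaling each library to their mean log2 level. On this scale 0 of the 8 touch receptor genes passed the limits or the adjusted test in limma, and 0 had an unadjusted p under 0.05. All 8 log2 fold changes stayed above 0, at 0.25 to 0.61 with a median of 0.32. The highest were *mec-18* at 0.61 (95% interval -0.03 to 1.25, adjusted p = 0.105) and *mec-7* at 0.58 (95% interval -0.09 to 1.25, adjusted p = 0.137). For *mec-17* the interval was -0.39 to 0.88. The upper ends of the first 2 intervals lie above the fold limit, as do those of *mec-3* (1.19) and *mec-4* (1.015). Over all genes this scale moved the median log2 fold change to -0.71, and 4.55% of genes rose and 41.8% fell by the limits. After adjustment 4.51% rose and 46% fell. With *ehs-1* and *snb-1* left out of the reference, the log2 fold changes of the 8 touch receptor genes were smaller. They ran from 0.10 to 0.49, with a median of 0.20, while the median over all genes moved to -0.85. As a plain ratio to the geometric mean of the pan-neuronal genes, *mec-12* was 2.197 ± 0.165 in *egl-44* worms and 1.79 ± 0.154 in WT worms fed OP50. *mec-18* was 0.171 ± 0.0406 in *egl-44* worms and 0.103 ± 0.00876 in WT worms fed OP50 (SD, n = 3 each). For both genes the *egl-44* libraries were above the WT libraries without overlap (exact permutation p = 0.1 each, the smallest possible), as were 7.5% of all genes tested on this ratio, while 52.9% were below without overlap. Both ratios counted *ehs-1* and *snb-1* in the reference, and whether the groups stay apart without them was not tested. In the scaled fit without them, *mec-12* had a log2 fold change of 0.20 (95% interval -0.36 to 0.76). That of *mec-18* was 0.49 (95% interval -0.16 to 1.13). The ratios of the other 6 genes overlapped between the groups, with exact permutation p of 0.2 to 0.5.

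**Figure D2:**
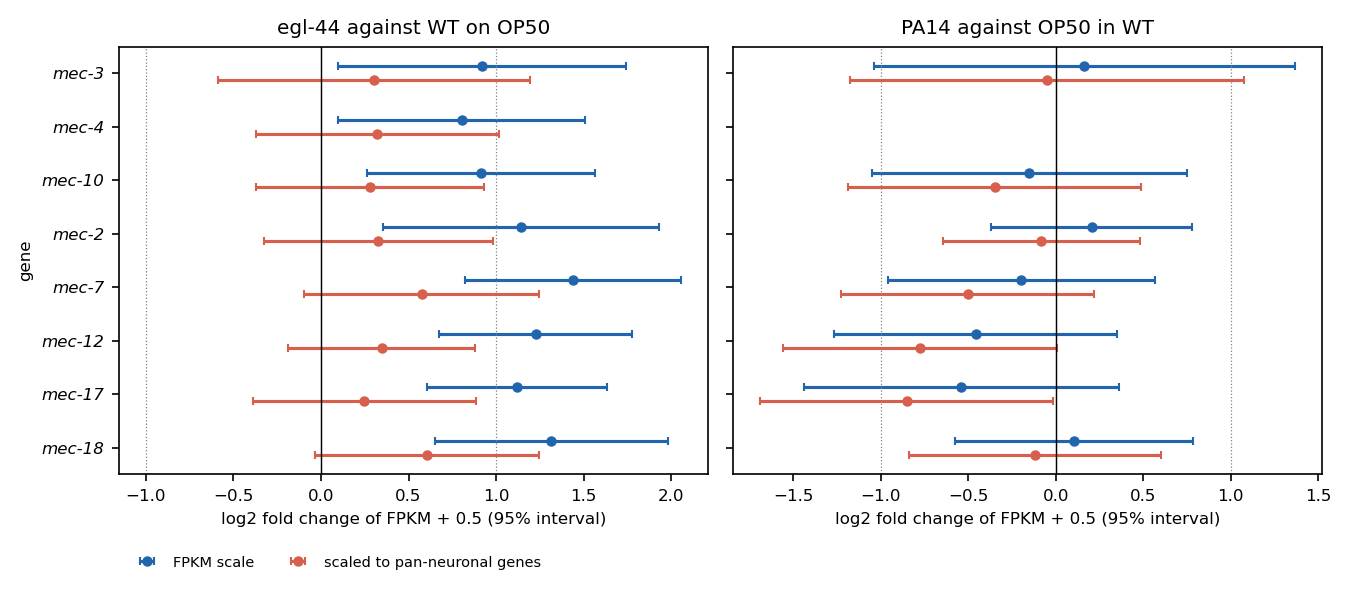
Log2 fold changes (FPKM + 0.5) of the 8 genes with 95% intervals from limma, on the FPKM scale (blue) and after scaling to the pan-neuronal genes (red), for *egl-44* against WT worms fed OP50 (left) and for PA14 against OP50 in WT worms (right). Dotted lines mark the fold limit of 2. On the left the blue points lie at 0.80 to 1.44 and the red points at 0.25 to 0.61. On the right *mec-4* is absent because its mean was under the minimum of 0.5 FPKM.

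Of 14 other genes needed for touch sensitivity or expressed in touch receptor neurons, 12 had enough signal to be tested. By the limits 9 rose and 1 fell in *egl-44* worms, and after adjustment 10 rose and 1 fell, with a median log2 fold change of 1.19. *unc-86*, the POU gene that acts upstream of *mec-3*, had 5.93, 10.8 and 3.12 FPKM in *egl-44* worms, against 1.36, 1.82 and 1.603 FPKM in WT worms fed OP50, with a log2 fold change of 1.62 (adjusted p = 0.0173, limma). *ptl-1*, which encodes a tau-like microtubule-binding protein, had a log2 fold change of 1.53 (adjusted p = 0.0140). *alr-1*, a homeodomain gene that reinforces *mec-3* expression, had one of 1.48 (adjusted p = 0.00521), and *mec-8*, a splicing factor gene whose targets include *mec-2*, one of 1.39 (adjusted p = 0.00303). The extracellular matrix genes *mec-1* (1.21) and *mec-9* (1.16), the channel chaperone gene *mec-6* (adjusted p = 0.0108) and the *mec-3*-dependent gene *mtd-1* (1.21) rose too. *mec-19* passed neither rule, with a log2 fold change of 0.43 (adjusted p = 0.420, limma). The gene that fell was *mec-15*, which encodes an F-box protein. It stood at 10.8, 11.6 and 16.9 FPKM in *egl-44* worms, against 33.3, 36.7 and 50.2 FPKM in WT worms fed OP50, and fell by 1.58 on the log2 scale (adjusted p = 0.00258, limma). Set against the pan-neuronal genes, none of the 12 rose by the limits and *mec-15* still fell, whereas *alr-1* kept an adjusted p of 0.0451 at a log2 fold change of 0.73.

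The genes that set the touch receptor fate were read next. The *egl-44* transcript itself stood at 32.6, 37.8 and 28.2 FPKM in *egl-44* worms, against 16.1, 21.5 and 15.97 FPKM in WT worms fed OP50. Its log2 fold change was 0.86 (adjusted p = 0.0103, limma). Set against the pan-neuronal genes it was -0.01 (95% interval -0.56 to 0.54, adjusted p = 0.979, limma), so no direction was shown on that scale. As the lesion is not known here, the level of this transcript does not check the genotype. *egl-46*, the partner gene, stood at 2.68, 4.54 and 1.78 FPKM in *egl-44* worms, against 0.968, 0.618 and 0.731 FPKM in WT worms fed OP50 (log2 fold change 1.39, adjusted p = 0.0137). The YAP gene *yap-1* had a log2 fold change of 0.35 (adjusted p = 0.112, limma), which turned to -0.52 (adjusted p = 0.128) when set against the pan-neuronal genes. *zag-1*, a zinc finger gene that opposes EGL-44 and EGL-46 in touch receptor neurons, stood at 8.34, 9.21 and 5.73 FPKM in *egl-44* worms, against 1.54, 1.42 and 1.44 FPKM in WT worms fed OP50. Its log2 fold change was 2.05 (SE 0.26, adjusted p = 0.00118, limma), and it remained called at 1.28 (adjusted p = 0.00396) when set against the pan-neuronal genes. It was the only one of the 9 fate regulators to pass the limits on that scale.

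FLP and PVD are the other mechanosensory neurons that express *mec-3*. Of 8 genes of these neurons, 4 rose and 1 fell in *egl-44* worms by both rules (limma). The acetylcholine receptor genes *deg-3* and *des-2* had log2 fold changes of 1.28 (adjusted p = 0.0279) and 1.14 (adjusted p = 0.0298), and *kpc-1*, a proprotein convertase gene of dendrite branching, had one of 1.13 (adjusted p = 0.00367). Without 1 library they came to as little as 0.89, 0.82 and 0.98, under the fold limit, and *deg-3* and *des-2* each had an adjusted p over 0.05 in some of these cases. *acp-2* fell by 1.64 on the log2 scale (adjusted p = 0.00889). The median was 0.94, and set against the pan-neuronal genes 0 of the 8 rose by the limits.

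Paralogs of the members were read from the same fit. In it 17.9% of all genes tested rose and 23.4% fell by the limits, and 26.3% rose and 31.5% fell after adjustment. Of 28 other DEG/ENaC genes, 18 were tested, 4 rose by the limits and 7 after adjustment, with a median log2 fold change of 0.71. The largest were *del-9* (1.28), *unc-105* (1.26) and *del-1* (1.15). *del-1* had 0.435, 0.505 and 0.282 FPKM in WT worms fed OP50. It met the minimum mean of 0.5 FPKM only through the *egl-44* libraries, as did *unc-8*, which is counted after adjustment. Of 8 stomatin genes tested, 4 rose by the limits, with a median of 1.03. They were *sto-6* (1.55), *unc-1* (1.30), *sto-2* (1.20) and *unc-24* (1.16), and *unc-24* is also counted among the touch sensitivity genes. Without WT replicate 3, *unc-105* (0.92), *sto-2* (0.88) and *unc-24* (0.92) were under the fold limit. Among tubulins, 12 of 13 were tested. The widely expressed tubulins *tba-1*, *tba-2*, *tbb-1* and *tbb-2* stood at 262 to 684 FPKM in *egl-44* worms and 250 to 685 FPKM in WT worms fed OP50, and none of them passed either rule, whereas all 4 fell after adjustment when set against the pan-neuronal genes. *tba-8* had the largest change of the family, with 24.1, 18.3 and 5.92 FPKM in *egl-44* worms, against 0.0750, 0.0435 and 0.0809 FPKM in WT worms fed OP50 (log2 fold change 4.67, adjusted p = 0.000666, limma). Its WT values were near the floor and it met the minimum mean of 0.5 FPKM only through the *egl-44* libraries. The size of its change is therefore uncertain. *tbb-4* (1.26) and *tba-7* (1.12) rose as well, and the median of the family was 0.30. Without 1 library *tbb-4* came to as little as 0.9993, just under the fold limit. *ben-1* fell after adjustment, with a log2 fold change of -0.52 (adjusted p = 0.0180, limma). The acetyltransferase paralog *atat-2* had a log2 fold change of 0.99 (adjusted p = 0.0212), against 1.12 for *mec-17*.

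**Figure D3:**
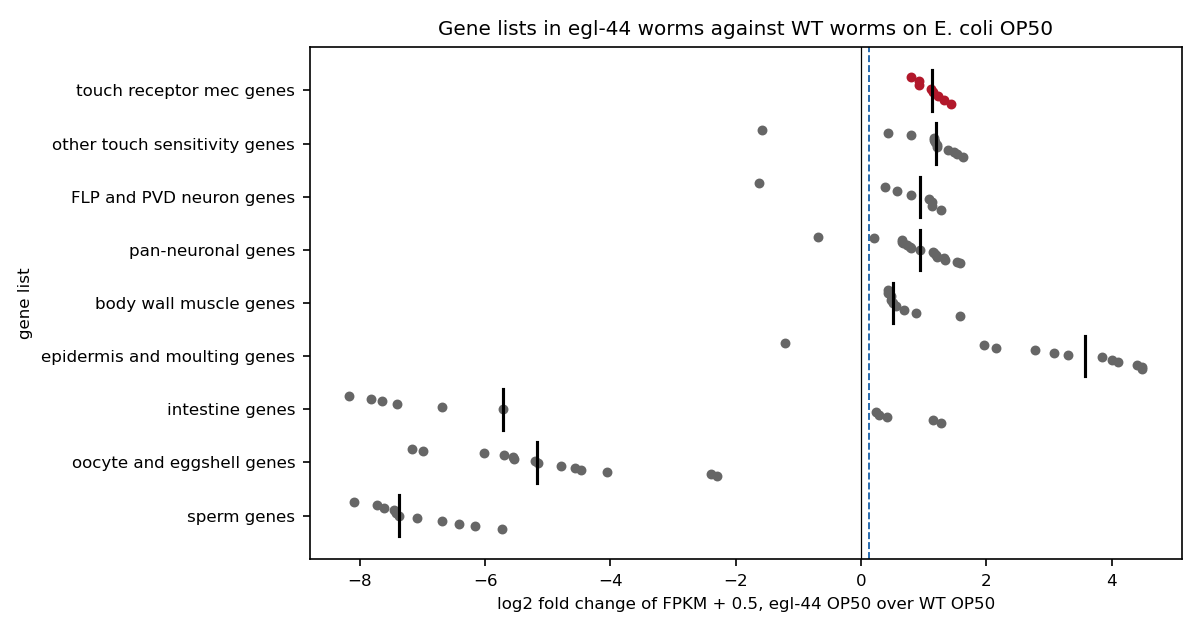
Log2 fold changes (FPKM + 0.5) in *egl-44* worms against WT worms fed OP50, with 1 point per gene tested, by gene list. Black bars are medians and the dashed line is the median of all genes tested (0.12). The 8 touch receptor genes (red, median 1.13) lie within the range of the pan-neuronal genes (median 0.94), while oocyte and eggshell (median -5.18) and sperm genes (median -7.38) lie far below 0.

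To ask whether infection changed the touch receptor genes, WT worms exposed to PA14 were compared with WT worms fed OP50. These OP50 libraries also served the comparison above. 7 of the 8 genes could be tested, because *mec-4* had a mean under 0.5 FPKM, with 0.365, 0.498 and 0.682 FPKM in PA14 worms and 0.470, 0.172 and 0.401 FPKM in OP50 worms. Without that minimum its log2 fold change was 0.27. 0 of the 7 passed the limits or the adjusted test, and 0 had an unadjusted p under 0.05, in limma or in limma-voom on the recovered reads. Of 15760 genes tested, 6.99% rose and 1.78% fell by the limits, and 0.73% rose and 0.127% fell after adjustment. The groups overlapped for all 8 genes, whereas 23.7% of all genes were higher and 6.53% lower without overlap.

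The most abundant members had lower means in PA14 worms without passing either rule. *mec-17* had 11.2, 5.99 and 15.7 FPKM in PA14 worms, against 17.2, 17.5 and 11.4 FPKM in OP50 worms, a log2 fold change of -0.54 (95% interval -1.44 to 0.36, adjusted p = 0.378, limma). *mec-12* had 16.6, 8.28 and 20.2 FPKM in PA14 worms, against 21.3, 20.2 and 17.3 FPKM in OP50 worms, a log2 fold change of -0.46 (95% interval -1.27 to 0.35, adjusted p = 0.398). *mec-7* had 7.62, 5.67 and 9.95 FPKM in PA14 worms, against 11.8, 8.84 and 6.33 FPKM in OP50 worms, a log2 fold change of -0.20 (adjusted p = 0.694). In all 3 genes PA14 replicate 2, the library that stood apart, was the lowest of the 9 libraries. Without it the 7 log2 fold changes ran from -0.18 to 0.21, with -0.18 for *mec-17* and -0.09 for *mec-12*.

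The members of lower level had log2 fold changes of -0.15 to 0.21. *mec-2* had 3.81, 3.91 and 4.18 FPKM in PA14 worms, against 3.31, 3.92 and 2.94 FPKM in OP50 worms, a log2 fold change of 0.21 (adjusted p = 0.580, limma). *mec-18* had 1.67, 1.15 and 1.01 FPKM in PA14 worms, against 1.22, 1.19 and 0.991 FPKM in OP50 worms (0.11, adjusted p = 0.816). *mec-10* had 0.510, 0.440 and 1.29 FPKM in PA14 worms, against 0.807, 1.19 and 0.554 FPKM in OP50 worms (-0.15, adjusted p = 0.800). In PA14 worms, replicate 3 of *mec-10* lay above the other pair. *mec-3* had 0.249, 1.66 and 1.40 FPKM in PA14 worms, against 1.42, 0.647 and 0.492 FPKM in OP50 worms. Its log2 fold change of 0.16 had a 95% interval of -1.04 to 1.37 (adjusted p = 0.838, limma), and its lowest library rested on 4 reads. That interval holds the fold limit in both directions.

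The members were also set against the pan-neuronal genes in this comparison. Pan-neuronal genes had a median log2 fold change of 0.31 in PA14 worms, beside 0.25 for all genes tested, and 1 of 17 (*unc-119*) rose by the limits. The ratio of *mec-12* to their geometric mean was 1.31, 0.597 and 1.31 in PA14 worms, against 1.96, 1.75 and 1.66 in OP50 worms. That of *mec-17* was 0.889, 0.432 and 1.02 in PA14 worms, against 1.58, 1.51 and 1.09 in OP50 worms. In both genes all PA14 libraries, with or without replicate 2, lay below all OP50 libraries (exact permutation p = 0.1 each, the smallest possible). On this ratio 19.4% of all genes tested were lower and 8.59% higher without overlap. In the scaled fit *mec-17* had a log2 fold change of -0.85 (95% interval -1.69 to -0.01, unadjusted p = 0.0473, adjusted p = 0.253) and *mec-12* one of -0.78 (95% interval -1.56 to 0.01, adjusted p = 0.262). Neither passed the limits or the adjusted test, which 5.88% and 0.228% of all genes passed in the lower direction and 3.65% and 0.451% in the higher direction on this scale. All 7 genes tested had log2 fold changes below 0 on it, from -0.85 to -0.05.

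**Figure D4:**
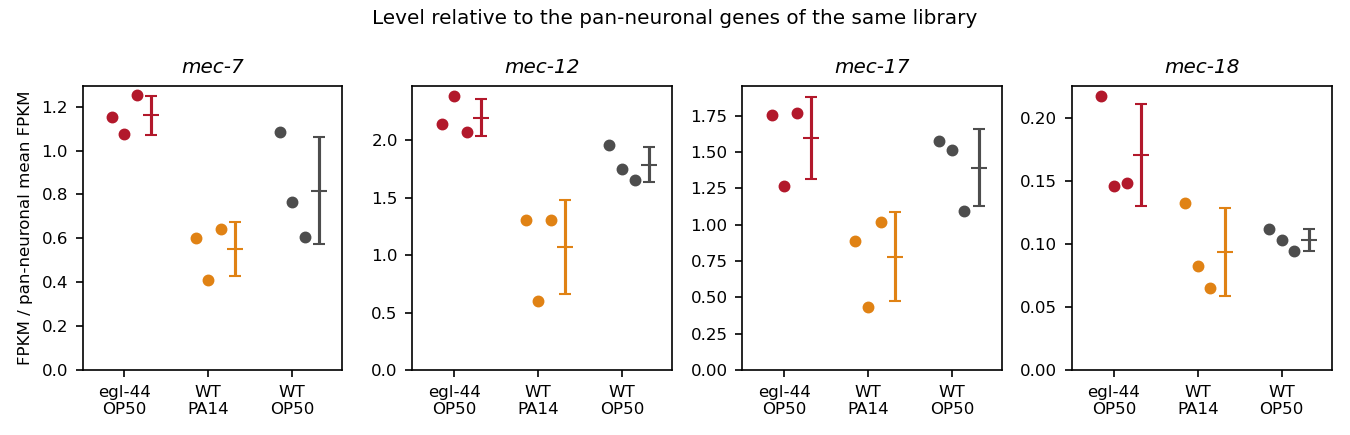
FPKM of *mec-7*, *mec-12*, *mec-17* and *mec-18* divided by the geometric mean FPKM of 17 pan-neuronal genes in the same library (linear axes from 0), with 1 point per library and the mean ± SD of 3 libraries, in *egl-44* worms fed OP50 (red), WT worms exposed to PA14 (orange) and WT worms fed OP50 (grey). The 17 genes include *ehs-1* and *snb-1*. For *mec-12* and *mec-17* the PA14 points lie below the OP50 points of WT worms, and for *mec-12* and *mec-18* the *egl-44* points lie above them.

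Of the other touch sensitivity genes, 2 of 12 rose by the limits in PA14 worms and 0 after adjustment (limma). *mec-8* had 14.9, 36.9 and 20.9 FPKM in PA14 worms, against 9.81, 12.4 and 8.81 FPKM in OP50 worms, with a log2 fold change of 1.10 (adjusted p = 0.200), and 0.76 without PA14 replicate 2. *alr-1* had 2.64, 5.82 and 3.12 FPKM in PA14 worms, against 1.38, 1.49 and 1.46 FPKM in OP50 worms, with a log2 fold change of 1.10 (adjusted p = 0.195), and 0.80 without PA14 replicate 2. Both genes thus fell under the fold limit without that library. The *egl-44* transcript had 30.4, 37.5 and 32.9 FPKM in PA14 worms, against 16.1, 21.5 and 15.97 FPKM in OP50 worms. The groups did not overlap, and the log2 fold change of 0.90 (unadjusted p = 0.00260, adjusted p = 0.109, limma) was under the fold limit. *yap-1* had 31.7, 42.9 and 46.8 FPKM in PA14 worms, against 27.01, 28.2 and 20.95 FPKM in OP50 worms, again without overlap (0.65, adjusted p = 0.209). *egl-46* had 1.78, 26.9 and 1.01 FPKM in PA14 worms, against 0.968, 0.618 and 0.731 FPKM in OP50 worms. The high value came from PA14 replicate 2, where *zag-1* also stood at 11.3 FPKM, against 1.31 and 2.32 FPKM in the other PA14 libraries. Most genes of the embryo list were likewise highest there among the PA14 libraries, though *med-1*, *med-2* and *skn-1* were not. In PA14 replicates 1, 2 and 3, *pes-10* had 0.836, 6.025 and 0 FPKM and *ceh-51* had 0.587, 4.055 and 0 FPKM. In PA14 replicate 2 *mec-3* had its highest PA14 value while *mec-7*, *mec-12* and *mec-17* had their lowest. A link between these values was not tested.

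The order of the members by mean FPKM was the same at the top in all 3 groups. *mec-12* was first with 47.6 ± 13.5 FPKM in *egl-44* worms, 15.03 ± 6.13 FPKM in PA14 worms and 19.6 ± 2.06 FPKM in WT worms fed OP50 (SD, n = 3 each). It was followed by *mec-17*, *mec-7*, *mec-2* and *mec-18*, with *mec-10* and *mec-3* below them and *mec-4* last. The ranges of *mec-12* and *mec-17* overlapped in every group, those of *mec-17* and *mec-7* in both WT groups, and those of *mec-10* and *mec-3* in every group. *mec-7* and *mec-2* did not overlap in any group. The sum of the 8 genes was 125, 144.5 and 99.5 FPKM in *egl-44* worms, 42.0, 27.6 and 54.5 FPKM in PA14 worms, and 57.6, 53.6 and 40.5 FPKM in WT worms fed OP50. Within that sum *mec-7* made up 19.4% to 21.5% in *egl-44* worms, 18.1% to 20.5% in PA14 worms, and 15.7% to 20.5% in WT worms fed OP50.

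Outside the members, the genes whose log2 levels over the 9 libraries were most like the mean of the 7 members tested in both comparisons were *svh-1*, *twk-49*, *unc-1*, *nas-31* and *sng-1*. Their Pearson correlations with that mean were 0.993, 0.993, 0.993, 0.990 and 0.988, given as a description, since the 9 libraries share the split between *egl-44* and WT worms. *svh-1*, which encodes a growth factor-like protein of axon regeneration, had 3.11, 3.49 and 1.97 FPKM in *egl-44* worms, 0.489, 0.442 and 1.11 FPKM in PA14 worms, and 0.854, 0.969 and 0.430 FPKM in WT worms fed OP50. *twk-49*, a potassium channel gene, had 16.4, 18.7 and 13.8 FPKM in *egl-44* worms, 3.48, 3.32 and 5.04 FPKM in PA14 worms, and 5.77, 4.96 and 3.65 FPKM in WT worms fed OP50. For single members the nearest genes were *inx-13*, *haf-9* and *haf-4* for *mec-7*, *F09B12.3*, *far-1* and *pbo-5* for *mec-12*, and *lon-1*, *cor-1* and *col-144* for *mec-17*. They were *nlp-9*, *lin-46* and *tpa-1* for *mec-2*, *F48C5.2*, *hpo-28* and *C14B9.3* for *mec-10*, and *gcy-32*, *T19C3.3* and *C54G6.2* for *mec-18*. The correlations for these 18 pairs ran from 0.978 to 0.996.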

How the data were processed

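Total RNA of whole worms was made into NEBNext Ultra libraries, and the authors deposited 1 table of FPKM values per library, normalized to gene length and to mapped fragments. The submitters' processing notes name Bowtie2 2.2.3, TopHat2 2.0.12, HTSeq 0.6.1, DESeq 1.18.0 and WBcel235; the annotation release, strandedness and handling of shared reads were not given in the sources used here. Gene symbols and positions came from Ensembl release 115 (WBcel235), which gave symbols to 19587 of 20541 genes. Whole reads were recovered from the FPKM steps: of 14727 genes above 0 in all 9 libraries, 13967 (94.8%) gave whole reads within 0.01 with a length 0.5 to 2 times the annotated one, and 1 read per kilobase was worth 0.0561 to 0.0734 FPKM. Read numbers bear on counting error only.

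Each comparison was fitted on its 6 libraries with limma 3.58.1 (R 4.3.3, trended empirical Bayes) on log2 values with a pseudocount of 0.5 FPKM. Genes averaging under 0.5 FPKM were left out, and the fit was tested on simulated data. Nothing states that replicates were separate cultures, so p-values measure only the spread between these libraries, which may be technical. Members and gene lists were chosen with earlier results of these data known. Genes named were all members, *egl-44*, *egl-46* and *yap-1*, and at most the 4 largest changes called per list. The nearest patterns were named too (5 for the mean, 3 per called member). Others were named after their values were seen, among them *mec-1*, *mec-6*, *mec-9*, *mec-19*, *mtd-1*, *ehs-1*, *unc-8*, *ben-1*, embryo and intestine genes and the 4 abundant tubulins. For lists of other tissues, counts and sums were given. Besides those in the report, the embryo list had 1 gene higher and 1 lower of 4 tested in *egl-44* worms, and the intestine list 2 higher and 6 lower of 11. The 6 lower intestine genes were the yolk genes *vit-1* to *vit-6*. The 2 higher were *ges-1* (log2 fold change 1.15) and *elt-2* (1.275). *act-5* (0.42), *ifb-2* (0.24) and *pho-1* (0.28) passed the limits in neither direction. Alternatives were another pseudocount, filter, scaling or moderation, limma-voom on recovered reads, 1 fit of all 9 libraries, a replicate block and leaving out each library.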

Additional observations from a re-analysis of the deposited data

How the results depend on the processing

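The number of touch receptor genes that rose in *egl-44* worms by the limits was 5. It was 8 with a pseudocount of 0.1, with quantile normalization and with limma-voom on recovered reads, and 0 with pan-neuronal scaling, with that scaling without *ehs-1* and *snb-1*, and with body wall muscle scaling. The last 2 were chosen after seeing the data. After adjustment the number was 6, and 0, 0 and 2 under those 3 scalings. The 2 were *mec-7* (0.79, adjusted p = 0.0467) and *mec-18* (0.78, adjusted p = 0.0420, limma). The adjusted number was 8 with quantile normalization, and 7 without a filter and in 1 fit of all 9 libraries. It was 5 of 5 tested with a minimum mean of 2 FPKM. Muscle scaling moved the median of all genes to -0.50. Leaving out 1 library gave 4 to 7 genes by either rule. The fold changes of all members tested stayed above 0 under every alternative run.

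In PA14 worms 0 members were called under every alternative, and the signs of small fold changes turned. *mec-2* became -0.0115 with median-of-ratios scaling, -0.083 with quantile normalization, -0.0813 with pan-neuronal scaling and -0.0881 without *ehs-1* and *snb-1*. In that order *mec-3* became -0.00577, -0.28, -0.0503 and -0.0545, and *mec-18* -0.0659, -0.27, -0.12 and -0.12. *mec-7* became 0.0182 with muscle scaling, as did the median of the members. Leaving out 1 library gave *mec-3* -0.12 to 0.64, *mec-7* -0.41 to 0.0122, *mec-10* -0.44 to 0.0252, *mec-18* -0.0485 to 0.21 and the median of the members -0.38 to 0.0252. In *egl-44* worms, *egl-44* became -0.00975 and -0.16 with the 2 pan-neuronal scalings, and *yap-1* -0.52 and -0.67, and -0.30 with muscle scaling. The causes were not tested.

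All genes called after adjustment for PA14 numbered 135. They were 79 without a filter, 72 with median-of-ratios scaling, 65 with quantile normalization, 57 with limma-voom, 327 in 1 fit of all 9 libraries and 9 to 106 without 1 library. By the limits they were 1383, and 915 to 2607 without 1 library. The genes higher and lower were 6.99% and 1.78%, 4.21% and 3.67% with median-of-ratios scaling, and 3.31% and 4.23% with quantile normalization. For *egl-44* they were 28.0% and 19.3% with quantile normalization. Replicate numbers did not pair the libraries, as same-numbered deviations correlated at 0.07 to 0.09 for *egl-44* and -0.55 to -0.19 for PA14; with the replicate block 3 genes were called after adjustment for PA14. *mec-3* and *mec-4* rested on 4 to 57 reads a library.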
